A study of Mus musculus with 9 samples.

Results

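The 34 genes described here encode the enzymes and regulators that make cholesterol and fatty acids in mouse cells. They were taken by symbol from a fixed list, and all 34 were found among the 18984 genes of the deposited tables. Of the 34, 5 belong to the machinery of sterol regulatory element binding proteins (SREBP), 18 to sterol synthesis and 11 to fatty acid synthesis. The data were RNA-seq of whole lung from immunocompetent C57BL/6 mice, taken 24 hours after intratracheal inoculation with hyphal fragments of the mould Aspergillus fumigatus, with its conidia, or with normal saline as the control. There were 3 libraries in each of these groups and 9 in all. The hypha is the filamentous, invasive form of the fungus and the conidium is its inhaled spore. The labels give no dose, age or sex. Since they also leave unsaid if each library is its own animal, the p-values may measure technical spread only.

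Cholesterol is built from acetyl-CoA through mevalonate, isoprenoids, squalene and lanosterol, while fatty acids are built from the same acetyl-CoA through malonyl-CoA. Both routes are switched on by SREBP transcription factors, which stay bound to the endoplasmic reticulum with Scap and the Insig proteins while sterols are plentiful and travel to the Golgi for cleavage when sterols are scarce. In the lung, alveolar type 2 cells use these routes to supply the lipids of surfactant.

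Expression was given as FPKM, fragments per kilobase of transcript, scaled to the mapped fragments of the library. Summed FPKM ranged from 492540 to 561250 per library, and 12451 to 13730 genes reached 1 FPKM. The deposited values hold no counts, so the depth of each library is unknown. The surfactant gene Sftpc, which marks lung tissue, stood at 10141 FPKM or more in every library. The secretory protein gene Scgb1a1 of club cells took 5.40 to 6.74% of summed FPKM in hyphae lungs, 8.11 to 11.5% in conidia lungs and 11.4 to 19.7% in control lungs. On the log2(FPKM + 1) scale used for every difference here, the median difference of all tested genes was −0.37 between hyphae and control lungs. It was −0.29 between hyphae and conidia and −0.07 between conidia and control. Values rescaled so that the median gene does not move (median-of-ratios factors) are therefore given beside the deposited ones. A gene was called changed at an adjusted p under 0.05 by limma over 13761 tested genes, and all 34 members were tested. Conidia replicate 2 stood apart from its group. Across genes at 1 FPKM or more in both libraries of a pair, its log2 values correlated with those of the control libraries at r = 0.969 to 0.984 and with conidia replicates 1 and 3 at 0.964 and 0.980. Conidia replicates 1 and 3 correlated with each other at 0.984 and with the control libraries at 0.913 to 0.960. These r describe libraries across genes, which are not independent replicates.

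The promoters of 4 members are shown as those of genes described in full below. Hmgcs1, Msmo1 and Insig1 had the lowest adjusted p-values among members that fell in hyphae lungs and have an entry in the promoter table, and Pmvk was the only member that rose on both scales. Each sequence is the 250 bases before the RefSeq start site on the gene's strand, 5′ to 3′, on build GRCm38.p6. Capitals mark matches to the core of the sterol regulatory element that SREBP binds (TCACNCCAC, or GTGGNGTGA on the opposite strand) and to the CCAAT box (CCAAT, or ATTGG on the opposite strand), bound by the factor NF-Y.
Hmgcs1, chr13:119690101-119690350, plus strand: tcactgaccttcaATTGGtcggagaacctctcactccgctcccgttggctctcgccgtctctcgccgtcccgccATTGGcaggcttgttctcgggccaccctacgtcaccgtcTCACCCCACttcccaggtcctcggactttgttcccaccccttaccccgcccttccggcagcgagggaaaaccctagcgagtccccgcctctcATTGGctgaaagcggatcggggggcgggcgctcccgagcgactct
Msmo1, chr8:64733579-64733828, minus strand: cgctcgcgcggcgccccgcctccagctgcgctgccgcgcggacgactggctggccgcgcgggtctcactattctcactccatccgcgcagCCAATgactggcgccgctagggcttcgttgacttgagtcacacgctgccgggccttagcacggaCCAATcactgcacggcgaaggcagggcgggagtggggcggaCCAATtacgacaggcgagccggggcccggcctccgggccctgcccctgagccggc
Insig1, chr5:28071162-28071411, plus strand: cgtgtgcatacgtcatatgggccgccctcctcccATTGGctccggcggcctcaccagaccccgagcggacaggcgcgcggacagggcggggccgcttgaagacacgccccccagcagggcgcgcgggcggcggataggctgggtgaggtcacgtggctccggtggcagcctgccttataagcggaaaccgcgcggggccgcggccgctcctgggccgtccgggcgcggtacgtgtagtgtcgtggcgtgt
Pmvk (first of 2 starts), chr3:89454291-89454540, plus strand: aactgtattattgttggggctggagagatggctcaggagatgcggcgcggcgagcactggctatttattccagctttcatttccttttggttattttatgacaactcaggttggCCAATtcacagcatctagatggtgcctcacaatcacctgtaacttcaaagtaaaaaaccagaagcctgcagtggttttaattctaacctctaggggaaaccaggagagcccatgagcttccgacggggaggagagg

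Of the 34 members, 27 had a promoter in the RefSeq table. The 27025 genes set beside them are all genes of that table and were not limited to genes tested here. A gene counted if any of its listed promoters held the motif. The sterol element core was found in 1 of 27 members (3.7%), Hmgcs1, where it lay 137 to 129 bases before the start site, and in 331 of 27025 genes overall (1.22%). A CCAAT box was found in 22 of 27 members (81.5%), against 10133 of 27025 genes (37.5%). By role, it was found in 4 of 5 SREBP machinery genes, all 14 sterol genes with a promoter in the table, and 4 of 8 fatty acid genes (50.0%). The 2 motifs do not overlap in the Hmgcs1 promoter. Members called lower in hyphae lungs held a CCAAT box in 15 of 18 cases and members not called in 6 of 8, and the box was also present in the promoter of Pmvk. These matches describe letters in a fixed window and were not tested as binding sites.

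In lungs given hyphae, transcripts of the sterol route stood well below control, while those of the fatty acid route were lower only in part. Against control, 15 of 18 sterol genes fell and 1 rose, 6 of 11 fatty acid genes fell, and 2 of 5 SREBP machinery genes fell, both of them Insig genes. Over all tested genes, 50.0% were called lower and 14.9% higher in the same comparison, 64.9% in either direction. After rescaling, 11 sterol genes were still lower and 1 higher, but only 2 fatty acid genes remained lower, against 29.3% of all genes called lower, 30.0% called higher and 59.3% called in either direction. The median difference of the sterol genes was −0.93, or −0.53 rescaled, and that of the fatty acid genes was −0.40, or 0.02 rescaled. The median over all genes was −0.37, so the fatty acid genes as deposited lay near that shift and the sterol genes below it. Whole lung was measured, so fewer cells of a type and less RNA per cell cannot be told apart.

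**Figure D1:**
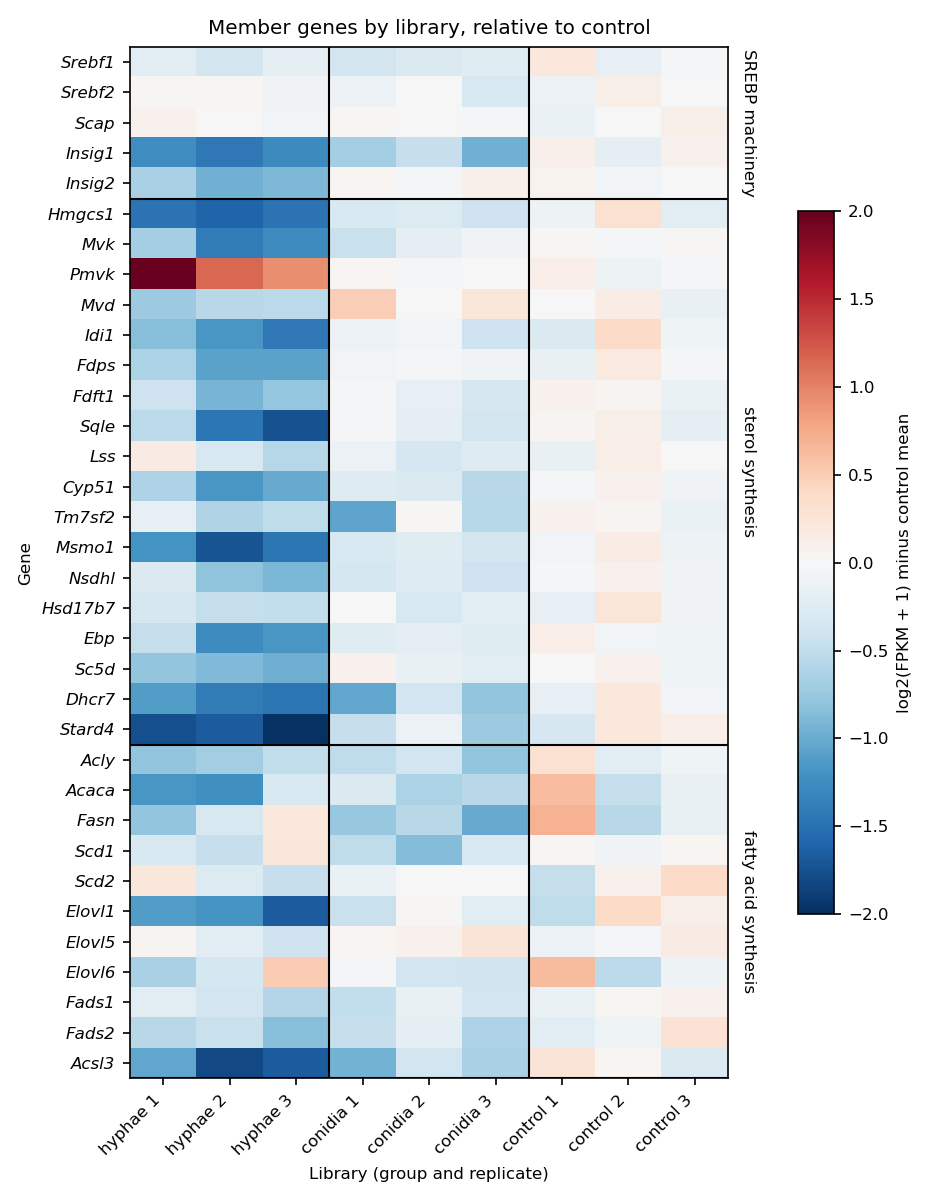
Each cell is 1 member gene (rows, by role) in 1 library (columns), coloured by its log2(FPKM + 1) minus the mean of the 3 control libraries, blue for lower and red for higher. The sterol rows are blue across the 3 hyphae libraries except Pmvk, which is red in all 3, and Lss, which is red in hyphae library 1 only.

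Within the SREBP machinery, the genes that fell on both scales were the 2 inhibitors, Insig1 and Insig2. Insig1, which holds Scap in the endoplasmic reticulum and is itself a known SREBP target, had 14.4, 12.6 and 14.0 FPKM in hyphae libraries, 21.9, 25.4 and 17.8 in conidia libraries and 38.3, 31.1 and 37.7 in control libraries. As deposited, the 3 groups did not overlap, with hyphae lowest and conidia between. After rescaling, hyphae and conidia libraries of Insig1 overlapped. Insig1 fell in hyphae lungs, with a log2 difference of −1.32 (SE 0.14, adjusted p = 9.83e-05), or −0.91 rescaled. Insig2, its paralog with the same retention role, had 11.3, 8.90 and 9.39 FPKM in hyphae libraries, 18.8, 17.9 and 19.7 in conidia libraries and 19.2, 17.7 and 18.1 in control libraries. Here conidia overlapped control and hyphae stood apart, with a difference of −0.83 from control (SE 0.10, adjusted p = 0.000178; −0.43 rescaled). The ratio of Insig1 to Insig2 FPKM, which rescaling of a library cannot alter, was 1.27 to 1.50 in hyphae, 0.900 to 1.42 in conidia and 1.76 to 2.08 in control libraries.

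Srebf2, which encodes the SREBP form that mainly drives sterol genes, had 37.6, 37.8 and 34.8 FPKM in hyphae libraries, 33.7, 36.4 and 29.3 in conidia libraries and 33.6, 39.8 and 37.1 in control libraries. The groups overlapped, and the deposited difference between hyphae and control was −0.0018 (95% interval −0.24 to 0.23), which became 0.42 after rescaling and was then called higher (adjusted p = 0.00974). Scap, the escort that carries SREBP to the Golgi, had 16.8, 15.8 and 15.1 FPKM in hyphae libraries, 16.2, 15.7 and 15.4 in conidia libraries and 14.4, 15.8 and 17.3 in control libraries. It too overlapped as deposited (0.01, interval −0.19 to 0.21) and was called higher after rescaling (0.41, adjusted p = 0.00659). Srebf1, whose product mainly drives fatty acid genes, had 27.2, 24.3 and 27.6 FPKM in hyphae libraries, 24.3, 25.6 and 26.6 in conidia libraries and 37.0, 28.0 and 30.6 in control libraries. All hyphae and conidia libraries lay below all control libraries, and the hyphae difference of −0.26 (adjusted p = 0.0691) was not called, nor was the rescaled one of 0.16. Without control replicate 2 the deposited Srebf1 difference was called lower, at −0.34 (adjusted p = 0.0351). Without control replicate 1 and hyphae replicate 3, whose adipose and cardiac marker levels are given below, the rescaled call of Srebf2 was lost at 0.36 (adjusted p = 0.0577).

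**Figure D2:**
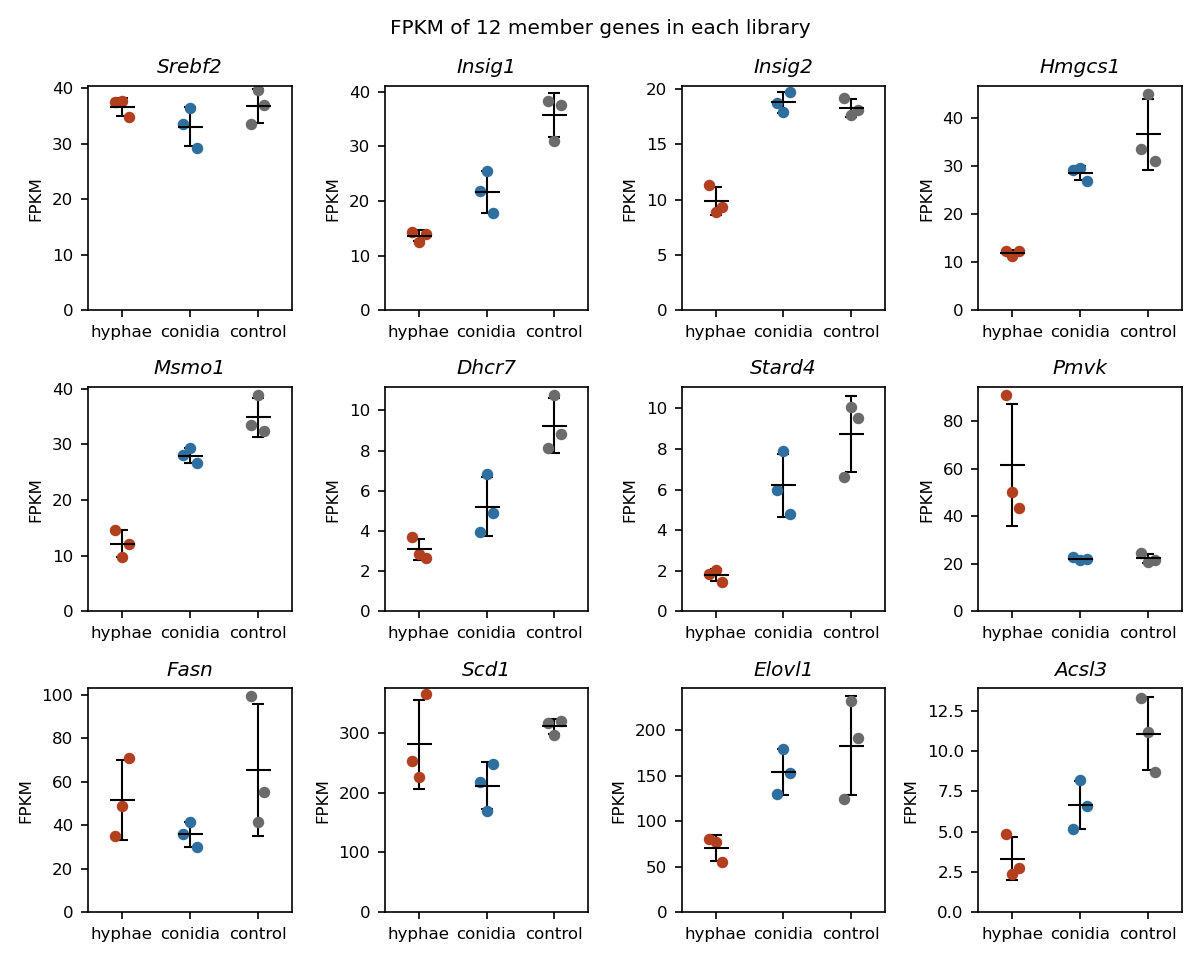
FPKM (vertical axes, from 0) of 12 member genes in each of 3 hyphae, 3 conidia and 3 control libraries; points are libraries, bars are the mean and 1 SD. Insig1, Hmgcs1, Msmo1, Dhcr7 and Stard4 are lowest in hyphae, Pmvk is highest there, and Srebf2 and Fasn overlap.

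At the entry to the sterol route, Hmgcs1, the synthase that makes HMG-CoA, had 12.3, 11.2 and 12.4 FPKM in hyphae libraries, 29.1, 29.7 and 26.9 in conidia libraries and 33.6, 44.9 and 31.1 in control libraries. The hyphae libraries were close to each other and below every other library. Hmgcs1 fell, with a log2 difference of −1.52 against control (SE 0.13, adjusted p = 4.55e-05; −1.11 rescaled). The next steps phosphorylate mevalonate, and their 2 kinases went opposite ways. Mvk, the first of them, averaged 6.18 ± 2.0 FPKM in hyphae and 14.2 ± 0.362 in control libraries (SD, n = 3 each) and fell by 1.11 on the log2 scale (adjusted p = 0.000748).

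Pmvk, the kinase that acts on the product of Mvk, had 90.9, 50.3 and 43.4 FPKM in hyphae libraries, 22.9, 21.6 and 22.2 in conidia libraries and 24.6, 20.7 and 21.6 in control libraries. All hyphae libraries lay above the rest, and replicate 1 was far above the other two. Pmvk rose by a log2 difference of 1.35 against control (SE 0.23, adjusted p = 0.000992; 1.77 rescaled), and still by 1.04 without hyphae replicate 1 (adjusted p = 0.000106). The ratio of Pmvk to Mvk FPKM was 8.15 to 10.7 in hyphae libraries, 1.65 to 2.25 in conidia libraries and 1.50 to 1.71 in control libraries, so the hyphae libraries did not overlap the others.

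The isoprenoid steps were also lower. Mvd, which decarboxylates the mevalonate product, averaged 4.93 ± 0.413 FPKM in hyphae and 8.07 ± 0.945 in control libraries (−0.61). Idi1, the isopentenyl diphosphate isomerase, averaged 1.87 ± 0.578 FPKM in hyphae and 5.43 ± 1.60 in control libraries (−1.15), at levels where adding 1 FPKM understates the change. Fdps, the farnesyl diphosphate synthase, averaged 21.7 ± 4.15 FPKM in hyphae and 41.9 ± 5.50 in control libraries (−0.93; SD, n = 3 each). All 3 were called lower, and after rescaling Mvd no longer was.

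From squalene to lanosterol, Fdft1 (squalene synthase) fell by 0.71 and Sqle (squalene epoxidase) by 1.24 on the log2 scale. After rescaling, Sqle was still called lower (−0.85) and Fdft1 was not (−0.31, adjusted p = 0.0776). Sqle had 12.7, 6.30 and 4.99 FPKM in hyphae libraries, 18.4, 16.4 and 14.5 in conidia libraries and 19.8, 20.6 and 16.6 in control libraries, so hyphae replicate 1 lay well above the other two while still under every other library. Lss, the cyclase that forms lanosterol, had 6.29, 4.26 and 3.41 FPKM in hyphae libraries, 5.04, 4.19 and 4.46 in conidia libraries and 4.90, 6.18 and 5.59 in control libraries. Its groups overlapped and its difference of −0.24 (interval −0.65 to 0.16) was not called. Without hyphae replicate 1 it was called lower, by 0.44 (adjusted p = 0.0207).

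Among the members that trim lanosterol to cholesterol, all fell as deposited except Tm7sf2, a sterol reductase, which averaged 4.10 ± 0.858 FPKM in hyphae and 5.81 ± 0.559 in control libraries (SD, n = 3 each) and was not called (−0.43, interval −0.98 to 0.13). Msmo1, the oxidase that begins removal of the C4 methyl groups, had 14.6, 9.85 and 12.1 FPKM in hyphae libraries, 28.0, 29.3 and 26.6 in conidia libraries and 33.5, 38.9 and 32.4 in control libraries. The groups did not overlap and ran hyphae, conidia, control from low to high. Msmo1 fell, with a difference of −1.46 in hyphae lungs (SE 0.13, adjusted p = 6.04e-05; −1.05 rescaled). Dhcr7, a reductase of the last step, had 3.70, 2.86 and 2.68 FPKM in hyphae libraries and 3.93, 6.82 and 4.90 in conidia libraries. Control libraries had 8.11, 10.8 and 8.82, again without overlap as deposited. After rescaling, hyphae and conidia libraries of Dhcr7 overlapped. Its difference between hyphae and control was −1.33 (SE 0.18, adjusted p = 0.000347), or −0.97 rescaled. Cyp51, the lanosterol demethylase, differed by −0.93, Nsdhl and Hsd17b7, which act after Msmo1, by −0.67 and −0.43, and Ebp and Sc5d, an isomerase and a desaturase of the sterol ring, by −0.96 and −0.88. All 5 were called lower as deposited, and Cyp51, Ebp and Sc5d also after rescaling.

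Stard4, which carries cholesterol between membranes and is not an enzyme of the route, showed the lowest difference of all 34 members. It had 1.85, 2.04 and 1.45 FPKM in hyphae libraries, 5.96, 7.88 and 4.78 in conidia libraries and 6.61, 10.1 and 9.53 in control libraries. Hyphae stood apart, and conidia overlapped control. The difference between hyphae and control was −1.79 (SE 0.20, adjusted p = 0.000113; −1.47 rescaled), a ratio of mean FPKM of 0.204.

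All hyphae libraries lay below all control libraries for 16 of 18 sterol genes, against 53.4% of all tested genes, and for 12 of 18 after rescaling, against 32.5%. Of the 16 sterol calls as deposited, 15 held when each of the 9 libraries was left out in turn. The exception was Hsd17b7, lost without hyphae replicate 2, hyphae replicate 3 or control replicate 2. Of the 12 rescaled calls 10 held, and those of Sqle (lost without hyphae replicate 2, hyphae replicate 3 or control replicate 2) and Ebp (lost without hyphae replicate 2 or 3) did not. Without both control replicate 1 and hyphae replicate 3, 14 sterol genes were lower as deposited and 7 after rescaling, when Sqle, Cyp51, Ebp and Sc5d were no longer called. The share of all genes called lower in these fits was not counted.

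**Figure D3:**
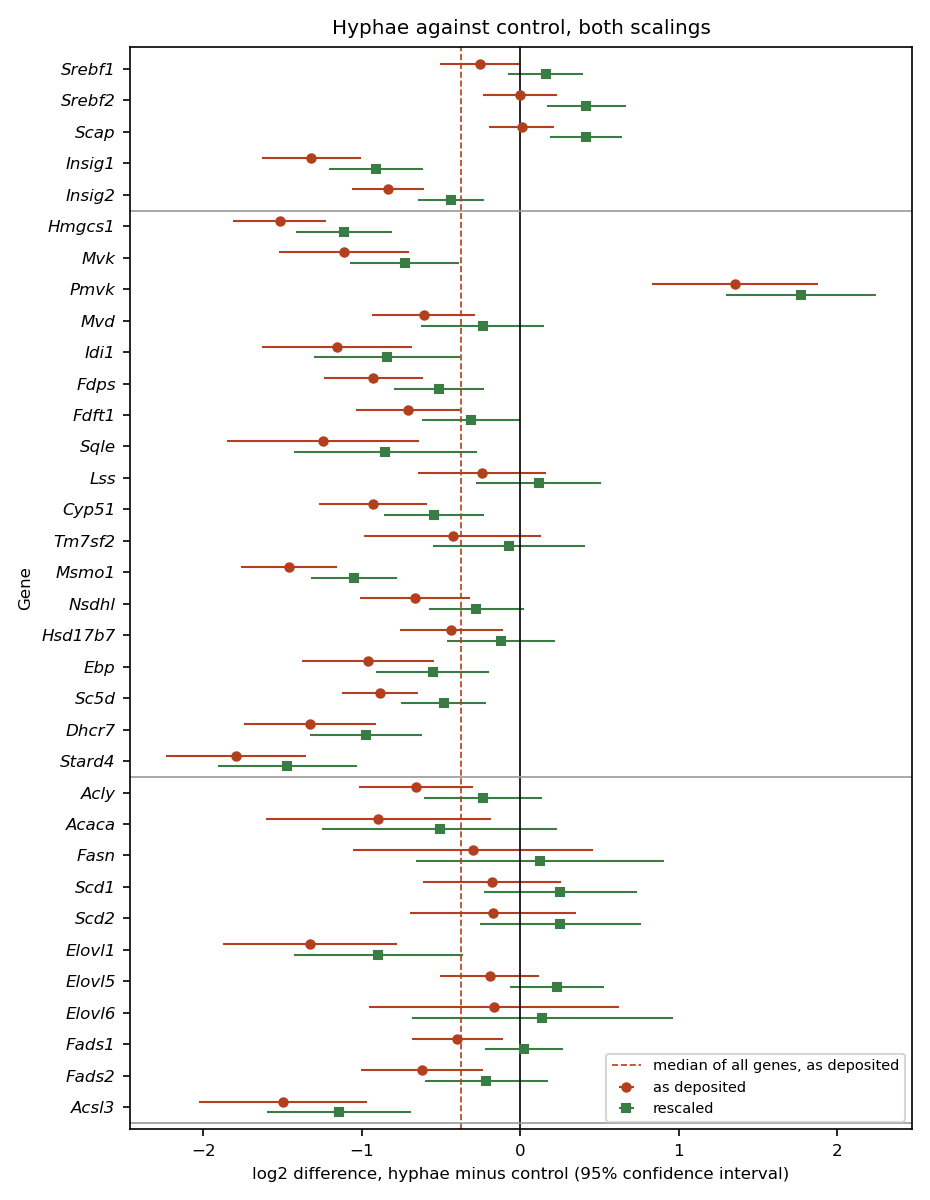
Log2 difference, hyphae minus control, of each member (rows, by role), with 95% confidence intervals, as deposited (circles) and rescaled (squares); the dashed line is the deposited median of all genes, −0.37. As deposited, the intervals of the sterol genes other than Pmvk, Lss and Tm7sf2 lie left of 0, and the intervals of Fasn, Scd1, Scd2 and Elovl6 span 0 on both scales.

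In the fatty acid route, the 2 genes that fell on both scales act on fatty acids already made. Elovl1, which lengthens very long saturated chains, had 81.1, 77.6 and 54.9 FPKM in hyphae libraries, 129.9, 179.6 and 153 in conidia libraries and 125, 232 and 192 in control libraries. Hyphae stood below every other library, and conidia overlapped control. The difference was −1.32 (SE 0.24, adjusted p = 0.00143; −0.90 rescaled). Acsl3, which couples fatty acids to CoA at the endoplasmic reticulum and lipid droplets, had 4.83, 2.41 and 2.78 FPKM in hyphae libraries, 5.20, 8.19 and 6.61 in conidia libraries and 13.3, 11.2 and 8.73 in control libraries. Its 3 groups did not overlap as deposited, but hyphae and conidia overlapped after rescaling. Acsl3 differed by −1.50 between hyphae and control (SE 0.23, adjusted p = 0.000617), or −1.14 rescaled.

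The enzymes that build the chain were not called after rescaling. Acly, which makes cytosolic acetyl-CoA from citrate, had 28.2, 30.2 and 35.1 FPKM in hyphae libraries, 34.4, 37.5 and 28.1 in conidia libraries and 61.1, 42.3 and 46.7 in control libraries. Hyphae and conidia overlapped each other and both lay below control, with a hyphae difference of −0.66 (adjusted p = 0.00579) that was not called after rescaling (−0.24). Acaca, which makes malonyl-CoA, had 5.35, 5.08 and 10.5 FPKM in hyphae libraries, 10.6, 8.19 and 8.65 in conidia libraries and 20.8, 9.25 and 11.8 in control libraries. Its hyphae and control libraries overlapped. It was called lower as deposited (−0.89, adjusted p = 0.0318) but not after rescaling, and the deposited call was lost without hyphae replicate 1, hyphae replicate 2, control replicate 1 or control replicate 3. Fasn, the synthase that assembles palmitate, had 35.0, 48.9 and 71.1 FPKM in hyphae libraries, 35.9, 41.5 and 30.0 in conidia libraries and 99.6, 41.6 and 55.3 in control libraries. These overlapped, and the difference between hyphae and control of −0.30 (interval −1.06 to 0.46) was not called.

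Of the remaining elongases and desaturases, Scd1, Scd2, Elovl5 and Elovl6 were not called on either scale. Scd1, a stearoyl-CoA desaturase, had 252, 225 and 365 FPKM in hyphae libraries, 218, 169.5 and 248 in conidia libraries and 317, 296 and 319.6 in control libraries, and its hyphae difference was −0.18 (interval −0.61 to 0.26). Its close paralog Scd2 had 128, 90.2 and 79.2 FPKM in hyphae libraries, 100.2, 109 and 109 in conidia libraries and 78.6, 116 and 143 in control libraries, with a difference of −0.17 (interval −0.70 to 0.35). The sources used here do not give how fragments shared by the 2 paralogs were assigned. The ratio of Scd1 to Scd2 FPKM was 1.97 to 4.60 in hyphae, 1.55 to 2.28 in conidia and 2.23 to 4.03 in control libraries. Elovl5, an elongase of polyunsaturated chains, differed by −0.19 (interval −0.50 to 0.12), and Elovl6, which lengthens palmitate, by −0.17 (interval −0.95 to 0.62).

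Fads1 and Fads2, the desaturases of polyunsaturated fatty acids, were called lower as deposited. Fads1 had 38.7, 34.8 and 30.0 FPKM in hyphae libraries, 32.2, 41.0 and 34.8 in conidia libraries and 41.3, 47.0 and 48.6 in control libraries, and Fads2 had 14.3, 15.5 and 11.5 FPKM in hyphae libraries, 15.5, 19.0 and 13.7 in conidia libraries and 18.5, 20.3 and 26.7 in control libraries. All hyphae libraries of both genes lay below control. The difference of Fads1 was −0.40 (adjusted p = 0.0211) and turned to 0.02 after rescaling, where it was not called. That of Fads2 was −0.62 (adjusted p = 0.0107), or −0.21 rescaled and not called. The ratio of Fads1 to Fads2 FPKM overlapped between groups, at 2.25 to 2.70 in hyphae, 2.09 to 2.55 in conidia and 1.82 to 2.32 in control libraries. The deposited call of Fads1 was lost without hyphae replicate 3, control replicate 2 or control replicate 3.

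Markers of other tissues varied with several fatty acid genes among hyphae and control libraries, but not among conidia libraries. The summed FPKM of 9 adipose markers, such as Adipoq and Cfd, was 50.3, 16.0 and 650.0 in hyphae libraries, 27.5, 148 and 252 in conidia libraries and 1406, 58.3 and 196 in control libraries. The summed FPKM of 6 cardiac muscle markers was 245, 114 and 1649 in hyphae, 277, 325 and 417 in conidia and 1464, 458 and 522 in control libraries. Control replicate 1 and hyphae replicate 3 were highest in their groups for both lists. The same 2 libraries had the most Fasn, Acaca, Elovl6 and Acly in their groups. In conidia lungs replicate 3 was highest for both lists, and it had the least Fasn (30.0 FPKM), Acly (28.1 FPKM) and Elovl6 (1.78 FPKM) of its group. The adipocyte hormone gene Lep was at 1.80 FPKM or less in every library and at 0 in hyphae replicate 2. Without these 2 libraries the difference between hyphae and control was −0.88 for Acaca (adjusted p = 0.00575), −0.59 for Acly (adjusted p = 0.0158), −0.21 for Fasn (adjusted p = 0.459) and −0.19 for Elovl6 (adjusted p = 0.494), and 5 fatty acid genes were called lower. The share of all genes called lower without control replicate 1 and hyphae replicate 3 was not counted. Hmgcs1 and Msmo1, the 2 members with the lowest adjusted p-values by limma in hyphae against control, were lower in the 3 hyphae libraries than in any other library. As given above, the rescaled calls of Sqle, Cyp51, Ebp and Sc5d were lost without control replicate 1 and hyphae replicate 3. The part of adipose tissue in the sterol values was not tested. Of 8 tested adipose markers 1, Adrb3, was called lower in hyphae than in control lungs, and of the 6 cardiac markers 0 were called.

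**Figure D4:**
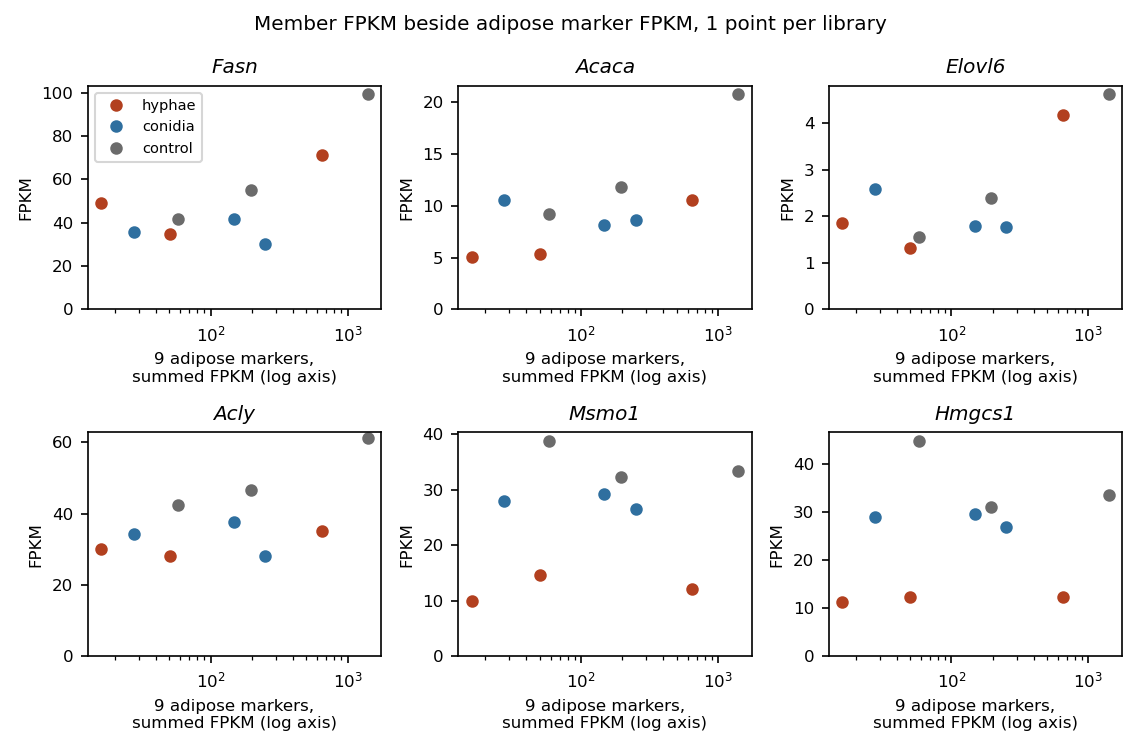
FPKM of 6 member genes (vertical axes) against the summed FPKM of 9 adipose markers (horizontal, log axis), 1 point per library. For Fasn, Acaca, Elovl6 and Acly control replicate 1, at 1406 on the horizontal axis, has the highest value. For Msmo1 and Hmgcs1 the 3 hyphae libraries are lowest.

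Alveolar type 2 cell markers did not fall as a block. Summed FPKM of 10 such markers was 30667, 26544 and 26891 in hyphae libraries, 16157, 26281 and 16778 in conidia libraries and 20705, 29937 and 28492 in control libraries. Of the 10, 4 were called lower in hyphae than in control lungs and 1 higher as deposited, and 2 lower and 4 higher after rescaling. Slc34a2, the phosphate transporter, differed by −2.19, and Etv5, a transcription factor of these cells, by −1.25, while Sftpc differed by 0.13 and was not called. Neutrophil markers (11 genes) summed to 674 to 5978 FPKM in hyphae, 868 to 3106 in conidia and 135 to 157 in control libraries, and 9 of the 11 rose in hyphae lungs. Club cell markers (5 genes) summed to 32198 to 41157 FPKM in hyphae, 46949 to 64053 in conidia and 68747 to 125050 in control libraries, and all 5 fell in hyphae lungs as deposited and 2 after rescaling. Alveolar macrophage markers (9 genes) summed to 252 to 384 FPKM in hyphae, 347 to 391 in conidia and 226 to 347 in control libraries, with 2 lower and 0 higher in hyphae lungs as deposited but 0 lower and 2 higher after rescaling. Endothelial markers (7 genes) summed to 1121 to 1269 FPKM in hyphae, 975 to 1044 in conidia and 766 to 1095 in control libraries, with 3 higher and 1 lower in hyphae lungs as deposited and 3 higher and 0 lower after rescaling. The part of these cell types in the sterol and fatty acid values was not tested.

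In lungs given conidia, no member was called against control by limma, over a background of 0.690% of tested genes called in either direction, 0.596% higher and 0.0945% lower. At an unadjusted p under 0.05 the counts were 2 of 5 SREBP machinery genes, 4 of 18 sterol genes and 6 of 11 fatty acid genes, against 21.1% of all tested genes, so the sterol count lay near the share of all genes. After rescaling none of the 34 was called, with 0.342% of all genes called, 0.298% higher and 0.0436% lower. Differences were below 0 for 31 of 34 members as deposited and for 27 of 34 after rescaling. The share of all genes below 0 was not counted, and their median was −0.07 as deposited and 0.01 rescaled. Beside these, the deposited medians were −0.15 for the SREBP machinery, −0.23 for sterol genes and −0.42 for fatty acid genes. Rescaled, they were −0.06, −0.13 and −0.32. All conidia libraries lay below all control libraries for 7 of 18 sterol and 5 of 11 fatty acid genes, against 17.8% of all genes, and after rescaling for 5 sterol and 3 fatty acid genes, against 13.3%.

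The members nearest a call were Insig1 (−0.70, adjusted p = 0.0583), Dhcr7 (−0.74, adjusted p = 0.0916) and Acly (−0.57, adjusted p = 0.114). Fasn had the lowest difference of the fatty acid genes, −0.77 (interval −1.53 to −0.01), but lay at 35.9, 41.5 and 30.0 FPKM in conidia libraries against 99.6, 41.6 and 55.3 in control libraries, with control replicate 1 far above the rest. Without that library and hyphae replicate 3 the Fasn difference was −0.42 (adjusted p = 0.387). Mvd had the highest difference, 0.25 (interval −0.08 to 0.57), with conidia and control libraries overlapping. Without conidia replicate 2, which stood closer to the control libraries than the others of its group and had the lowest neutrophil markers among them, Insig1 (−0.82, adjusted p = 0.0105), Tm7sf2 (−0.81, adjusted p = 0.0331), Dhcr7 (−0.91, adjusted p = 0.0148) and Acly (−0.65, adjusted p = 0.0493) were called lower, and 1503 of all genes were called, against 95 with it. With any other library left out, no member was called.

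Hyphae lungs were also set directly against conidia lungs, a comparison that shares its libraries with both comparisons above. Of 18 sterol genes 13 were lower and 1, Pmvk, was higher; of 11 fatty acid genes 2 were lower; and of the SREBP machinery Insig1 and Insig2 were lower. Over all genes 42.5% were called lower and 12.7% higher, 55.2% in either direction. After rescaling the counts were 9 lower and 1 higher for sterol genes, 2 lower and 1 higher for fatty acid genes, and 1 lower and 3 higher for the SREBP machinery, over 25.4% of all genes in each direction and 50.8% in either. All hyphae libraries lay below all conidia libraries for 14 of 18 sterol genes and 2 of 11 fatty acid genes, against 45.1% of all genes. After rescaling they lay below for 8 sterol genes and 1 fatty acid gene, against 28.6% of all genes, and above for 1 sterol gene, 3 fatty acid genes and 3 SREBP machinery genes, against 28.5%. The median difference was −0.76 for sterol genes and −0.12 for fatty acid genes, or −0.45 and 0.21 rescaled, beside −0.29 and −0.0074 for all genes.

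Hmgcs1 and Msmo1 differed by −1.19 and −1.15 between hyphae and conidia lungs (adjusted p = 0.000163 and 0.000215). Stard4 differed by −1.36 (adjusted p = 0.000563) and Mvd by −0.85 (adjusted p = 0.00122). The 4 sterol genes not called were Lss, Tm7sf2, Nsdhl and Hsd17b7. Pmvk differed by 1.35 (adjusted p = 0.00136). Among fatty acid genes Elovl1 (−1.11) and Acsl3 (−0.84) were lower on both scales. Scd1 differed by 0.39 as deposited, which was not called, and by 0.72 after rescaling, which was (adjusted p = 0.0205). Srebf1, Srebf2 and Scap were called higher only after rescaling, at 0.37, 0.47 and 0.33, and their deposited groups overlapped. Insig1 was called lower as deposited (−0.62) but was not called after rescaling (−0.30, adjusted p = 0.0801). When each library was left out in turn, 12 of 14 sterol calls held as deposited, with Fdft1 lost without hyphae replicate 2 and Dhcr7 without hyphae replicate 2, hyphae replicate 3, conidia replicate 2 or conidia replicate 3. The deposited Acsl3 call was lost without hyphae replicate 2. Of the rescaled calls, 7 of 10 sterol genes, 2 of 4 SREBP machinery genes and 0 of 3 fatty acid genes held. Those of Scd1 were lost without hyphae replicate 3 or conidia replicate 2, those of Srebf1 without the same libraries, and those of Scap without hyphae replicate 2, conidia replicate 2 or conidia replicate 3. The rescaled call of Elovl1 was lost without hyphae replicate 3, conidia replicate 2 or conidia replicate 3, and that of Acsl3 without these libraries, hyphae replicate 2 or control replicate 2. Among sterol genes the rescaled call of Mvd was lost without hyphae replicate 1, conidia replicate 1 or conidia replicate 3, that of Idi1 without hyphae replicate 3 or conidia replicate 1, and that of Sqle without any library other than hyphae replicate 1 and control replicate 3.

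**Figure D5:**
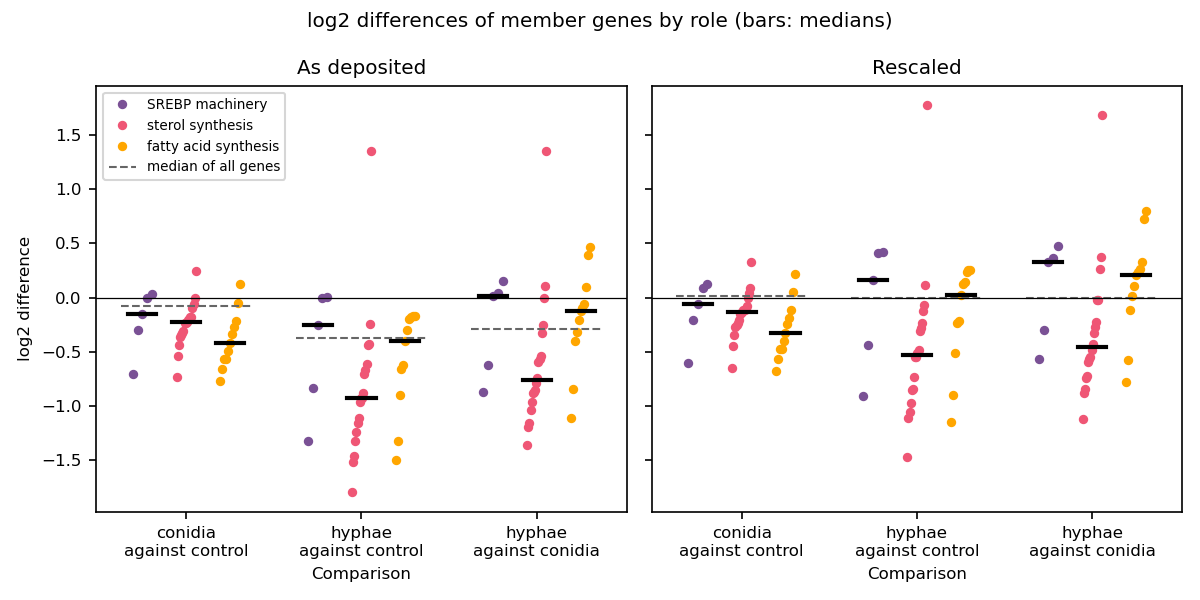
Log2 difference of each member (points, coloured by role) in the 3 comparisons, as deposited (left) and rescaled (right); black bars are the medians of each role and dashed lines the median of all genes. In both comparisons with hyphae the sterol medians, −0.93 and −0.76 as deposited, lie below the fatty acid medians, −0.40 and −0.12, and Pmvk is the point far above 0.

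Other genes of these pathways gave a mixed record in hyphae lungs. Of 9 tested genes of sterol synthesis and uptake outside the 34 members, 5 were lower and 1 higher in hyphae than in control lungs, or 2 lower and 3 higher after rescaling. As given above, 50.0% of all genes were called lower and 14.9% higher in this comparison, or 29.3% lower and 30.0% higher after rescaling, so these counts lay near the shares of all genes. Soat1, which esterifies cholesterol, had 7.25, 7.02 and 5.14 FPKM in hyphae and 18.7, 24.0 and 16.7 in control libraries, a difference of −1.47 (adjusted p = 0.00034). Acat2, a thiolase that supplies acetoacetyl-CoA, differed by −0.98. Lbr, a sterol reductase that is also a protein of the nuclear envelope, rose by a difference of 0.55 (adjusted p = 0.0173).

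Of 15 tested further genes of fatty acid synthesis and activation, 4 were lower and 0 higher, or 2 lower and 1 higher after rescaling, both smaller shares than those of all genes. Acss2, which makes acetyl-CoA from acetate, had 11.3, 4.66 and 10.04 FPKM in hyphae and 32.4, 17.9 and 17.9 in control libraries, a difference of −1.32 (adjusted p = 0.0087). Hacd3, a dehydratase of chain elongation, differed by −0.93 and Acsl5, another acyl-CoA synthetase, by −0.50. None of the genes in these 2 lists was called in conidia lungs, where their smallest adjusted p was 0.131 in each list.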

How the data were processed

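The 9 files hold FPKM values, 1 file per library, computed by the authors and named as FPKM per the file headers, with 2 decimals. The submitters' processing notes name HISAT, Bowtie2 and mm9, with neither role nor version; the FPKM tool, and whether fragments were assigned by strand, are not given in the sources used here, so a gene and an antisense partner cannot be told apart. The files list 18984 genes by Entrez ID and symbol, 18763 of them coding.

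Values were transformed to log2(FPKM + 1), which understates changes of low genes. Genes at 1 FPKM or more in at least 3 of 9 libraries (13761) entered one limma-trend model with robust moderation and a term per group, without covariates (R 4.3.3, limma 3.58.1). The 3 comparisons were two-sided, with Benjamini-Hochberg adjustment over all genes; intervals are 95%. The smallest exact two-sided p for 3 against 3 libraries is 0.1. Rescaled values were divided by median-of-ratios factors (0.811 to 1.16). Code was tested on simulated data. Alternatives were trimmed-mean (TMM) scaling, another pseudocount, other filters, 2-group fits, no robust moderation, a replicate block and leaving out libraries; leaving out control replicate 1 with hyphae replicate 3 was chosen after the data were seen.

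Members and lists were chosen with earlier results of these data known. All members are accounted for. Full values are given for the SREBP machinery, for the 4 called sterol and fatty acid genes with the largest differences in each direction on each scale, and for the Scd and Fads pairs; Fasn, Lss and Sqle were added after their values were seen. Genes of other lists are named if among the 3 largest called changes of their list, marker genes aside; some that the rule names are not reported here. Promoters come from RefSeq (GRCm38.p6), a build other than mm9, and were used for sequence only.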

Additional observations from a re-analysis of the deposited data

How the results depend on the processing

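The fall of sterol genes in hyphae lungs kept its direction in every alternative run, with 14 to 16 genes lower as deposited and 9 to 13 rescaled when 1 library was left out, while calls of fatty acid and SREBP machinery genes depended on the scaling. With median-of-ratios or TMM scaling in place of the deposited values, fatty acid genes called lower in hyphae against control numbered 2, not 6, and SREBP machinery genes called higher numbered 2, not 0. Against conidia, both scalings gave 3 higher and 1 lower for the SREBP machinery and 1 higher for fatty acid genes. The difference of Srebf2 between hyphae and control turned from −0.0018 as deposited to 0.42 (median-of-ratios) and 0.45 (TMM), and that of Fads1 from −0.40 to 0.025 and 0.059. Genes called in conidia lungs were few and unstable: 95 as deposited, 47 with median-of-ratios scaling, 46 with TMM scaling, 43 without a filter on low values, 0 without control replicate 1 and hyphae replicate 3 on either scale, and 0 to 1503 (rescaled 0 to 1408) with 1 library left out. Conidia members called lower numbered 0 to 1 for the SREBP machinery, 0 to 2 for sterol genes and 0 to 1 for fatty acid genes as deposited, and 0 to 1, 0 to 2 and 0 rescaled.

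With 1 library left out, the deposited counts in hyphae against control were 2 to 3 lower for the SREBP machinery and 4 to 6 lower for fatty acid genes, and the rescaled fatty acid count was 2 to 3 lower. In hyphae against conidia, the deposited counts were 11 to 14 lower for sterol and 1 to 3 lower for fatty acid genes. The rescaled counts were 1 to 3 higher and 1 to 2 lower for the SREBP machinery, 1 to 2 higher and 6 to 10 lower for sterol genes, and 0 to 2 higher and 0 to 2 lower for fatty acid genes. In the same fits, all genes called in hyphae against control numbered 7619 to 8995 as deposited and 6794 to 8238 rescaled. In hyphae against conidia they numbered 5890 to 7858 and 5361 to 7300. These totals were not split by direction. Without control replicate 1 and hyphae replicate 3, rescaled counts were 1 SREBP machinery gene higher and 7 sterol genes lower in hyphae against control, and 1 fatty acid gene lower in hyphae against conidia. Fits of the 2 groups alone added Tm7sf2 and lost Acaca in hyphae against control, and a filter at 5 FPKM left Idi1, Hsd17b7 and Elovl6 untested. The causes were not tested.

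Deviations from the group means correlated at −0.312 to 0.425 for same-numbered libraries and at −0.536 to 0.297 for differently numbered ones. These ranges overlapped, and with 3 libraries in each group they cannot decide if replicate numbers pair the libraries. With a replicate block, 57 genes were called in conidia lungs (13 rescaled), 1 fatty acid gene was called higher in hyphae against conidia as deposited, and 1, not 2, was called lower rescaled. Other member counts stayed within 1.5 times. Depth is unknown, so the precision of low values such as Idi1 and Stard4 cannot be given.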

Other observations

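Genes of the liver X receptor (LXR), the nuclear receptor that senses oxysterols and drives sterol export, moved both ways in hyphae lungs. Of 9 tested, 2 were higher and 3 lower than in control lungs, or 3 higher and 2 lower after rescaling. Over all tested genes 14.9% were higher and 50.0% lower, or 30.0% higher and 29.3% lower after rescaling, so the rescaled LXR counts lay near the shares of all genes. Ch25h, which makes the oxysterol 25-hydroxycholesterol, had 25.8, 40.0 and 52.7 FPKM in hyphae libraries, 52.0, 13.4 and 25.9 in conidia libraries and 5.18, 4.04 and 4.8 in control libraries. All libraries of both fungal groups lay above control. Ch25h rose in hyphae lungs by a log2 difference of 2.78 (adjusted p = 0.000578), and the conidia difference of 2.28 was not called (adjusted p = 0.0548). Mylip, a ubiquitin ligase, rose by 0.77 in hyphae lungs (adjusted p = 0.0235). Nr1h3, which encodes LXR alpha, had 10.2, 8.14 and 8.40 FPKM in hyphae libraries, 21.7, 25.3 and 28.9 in conidia libraries and 23.7, 23.6 and 26.0 in control libraries, a hyphae difference of −1.37 (adjusted p = 5.4e-05). Abcg1, a sterol exporter, differed by −0.80 and Lpcat3, a phospholipid acyltransferase, by −0.34.

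Of 12 fatty acid oxidation genes, 8 were lower and 1 higher in hyphae than in control lungs, or 4 lower and 2 higher after rescaling. Over all tested genes 50.0% were lower and 14.9% higher, or 29.3% lower and 30.0% higher after rescaling. The rescaled count of lower oxidation genes thus lay near the share of all genes. Cpt2, the inner carnitine palmitoyltransferase, differed by −1.24. Pdk4, a kinase that restrains glucose oxidation, rose by 1.36 (adjusted p = 0.0366), with hyphae replicate 3 at 33.0 FPKM and the other two at 11.6 and 8.83. No gene of these 2 lists was called in conidia lungs by limma, where 4 LXR genes and 0 oxidation genes had an unadjusted p under 0.05, against 21.1% of all tested genes.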
